A study of Homo sapiens with 27 samples.

Results

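TXNIP, the alpha-arrestin genes ARRDC2, ARRDC3 and ARRDC4, the glucose-sensing transcription factor genes MLXIP and MLXIPL, and the thioredoxin gene TXN were followed in Panc1, an established cell line from a human pancreatic ductal adenocarcinoma. These 7 genes were taken by symbol from 21487 measured gene identifiers, and all 7 passed the filter on low counts. RNA selected for polyA tails was sequenced from 27 libraries in 9 groups of 3. Parental Panc1 cells and 2 ARNT-knockout lines, clone A and clone B, were held for 48 hours at 20% O2 in regular medium (normoxia), at 1% O2 in the same regular medium (hypoxia), or at 1% O2 in TIFM (Tumor Interstitial Fluid Medium, made to resemble the fluid inside pancreatic tumors). Regular medium was DMEM with 10% FBS and 1% P/S. The knockouts were made with CRISPR-Cas9, and each knockout line is a single clone derived independently of the other. A difference found in 1 clone alone therefore cannot be told apart from a property of that clone. No control clone taken through the same editing and cloning is among the 27 libraries. A difference shared by both clones therefore cannot be told apart from effects of those steps. TIFM was used only under hypoxia, so its comparisons here are all within hypoxia. The labels do not say whether replicates came from separate cultures; p-values therefore reflect the spread among these libraries, which may be technical.

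TXNIP (thioredoxin-interacting protein) is an alpha-arrestin that binds thioredoxin and promotes the removal of glucose transporters from the cell surface. ARRDC4 is the closest arrestin relative of TXNIP and likewise lowers glucose uptake, whereas ARRDC2 and ARRDC3 are related adaptors that bring ubiquitin ligases of the NEDD4 family to membrane proteins. MLXIP encodes MondoA and MLXIPL encodes ChREBP, basic helix-loop-helix factors that respond to phosphorylated glucose, pair with MLX and bind paired E-boxes called carbohydrate response elements. TXNIP and ARRDC4 are the best known MondoA target genes, and TXNIP transcription is therefore a common readout of glucose supply. The libraries measure RNA and not glucose, so the part of glucose supply in the changes below was not tested. TXN encodes cytosolic thioredoxin, the redox protein that TXNIP binds. ARNT (HIF1B) pairs with HIF1A or EPAS1 to form the hypoxia-inducible factors, which bind a short core sequence in hypoxia response elements.

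The sequences upstream of TXNIP and ARRDC4 are shown because these are the reported MondoA targets among the 7 genes and because the pair rose with TIFM in all 3 genotypes, as described below. Both are RefSeq sequences of GRCh38.p14, written 5′ to 3′ on the gene's own strand. For TXNIP the stretch covers the 150 bases before the annotated start (chr1:145996580-145996729, minus strand), and capitals mark a paired E-box that matches CACGNG, then NNNNN, then CACGNG.
TXNIP: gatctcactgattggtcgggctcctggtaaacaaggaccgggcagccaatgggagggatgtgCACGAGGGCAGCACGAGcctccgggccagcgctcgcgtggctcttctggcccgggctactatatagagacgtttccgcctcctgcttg
For ARRDC4 the stretch covers 150 bases that begin 250 bases before the start (chr15:97960453-97960602, plus strand), and capitals mark a single E-box, CACGTG.
ARRDC4: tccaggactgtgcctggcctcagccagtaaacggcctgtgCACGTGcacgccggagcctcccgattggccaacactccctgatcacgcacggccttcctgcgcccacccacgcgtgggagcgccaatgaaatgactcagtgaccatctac

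The paired E-box of TXNIP began 88 bases before the start. Searched on both strands in 35116 windows of 300 bases (250 before to 50 after each RefSeq start), this pattern was found in 20 windows, or 0.057%. The single E-box CACGTG of ARRDC4 began 210 bases before the start, and 7.26% of all windows held that sequence. The core of the hypoxia response element (ACGTG or GCGTG, which overlaps CACGTG) occurred in 48.4% of windows. It was matched 6 times in the ARRDC4 window, 6 times in the TXN window, 2 times in the main TXNIP window and 2 times in the MLXIP window. It was matched 2 times in each ARRDC2 window and 0 times in the MLXIPL window or in either ARRDC3 window. Matches were counted on both strands and could overlap, so the CACGTG of ARRDC4 alone gave 2 of its 6. The FOXO sequence GTAAACA, found in 3.42% of windows, was matched once in the main TXNIP window and once in 1 of the ARRDC3 windows. These matches describe letters in short windows and are not measurements of binding.

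Libraries held 26057022 to 38341713 counts (median 31727174). Transcripts of the targeted gene ARNT were present in every group (48.8 to 75.5 CPM, TMM-scaled read counts per 1e6 counts), which does not check the knockout, since the position of the edit is not given in the sources used here. All 6 epithelial markers examined reached 5 CPM in some group. Against parental normoxia 1 of the 6 was higher and 5 lower in clone A, and 0 were higher and 1 lower in clone B. Of all genes tested, 15.9% were higher and 15.8% lower in clone A, and 13.2% higher and 13.3% lower in clone B. The marker lower in both clones was CDH1 (E-cadherin). Its parental level was 60.0 ± 1.37 CPM (SD, n = 3) against 1.62 ± 0.256 (clone A) and 1.26 ± 0.123 (clone B). Of 16 markers of other cell types, 11 were under 1 CPM in every group, INS was at 0, and CD68 and COL1A1 exceeded 5 CPM; the summed level of the 16 was 128 to 173 CPM in parental groups, 258 to 288 in clone A and 321 to 1021 in clone B. The 3 libraries of a group were less alike in TIFM, where the biological coefficient of variation was 29.2% in clone A, 17.3% in clone B and 17.3% in parental cells, against 4.52% to 12.7% in the other 6 groups. The part of the marker levels and of this spread in the results that follow was not tested. In bulk RNA, fewer cells of a type and less RNA per cell cannot be told apart.

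TXNIP (chr1:145992435-145996600, GRCh38, minus strand) had the widest range of the 7 genes as a ratio of its highest to its lowest group mean. In parental cells its 3 libraries read 12.8, 11.4 and 11.8 CPM in normoxia, 5.58, 5.43 and 7.14 in hypoxia, and 112, 125 and 90.6 in hypoxia with TIFM. In clone A they read 6.73, 6.90 and 7.68 in normoxia, 3.87, 3.53 and 4.44 in hypoxia, and 237, 311 and 138 with TIFM. In clone B they read 27.7, 29.9 and 28.5 in normoxia, 4.12, 5.80 and 5.60 in hypoxia, and 130, 52.2 and 52.0 with TIFM. Every TIFM library of every genotype was above every library in regular medium, and within each genotype every hypoxia library was below every normoxia library. From the lowest mean upward, the 3 hypoxia groups and clone A in normoxia overlapped their neighbours, and parental normoxia, clone B normoxia and the TIFM groups followed. Among the TIFM groups, clone B and parental overlapped and clone A stood above the rest.

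**Figure D1:**
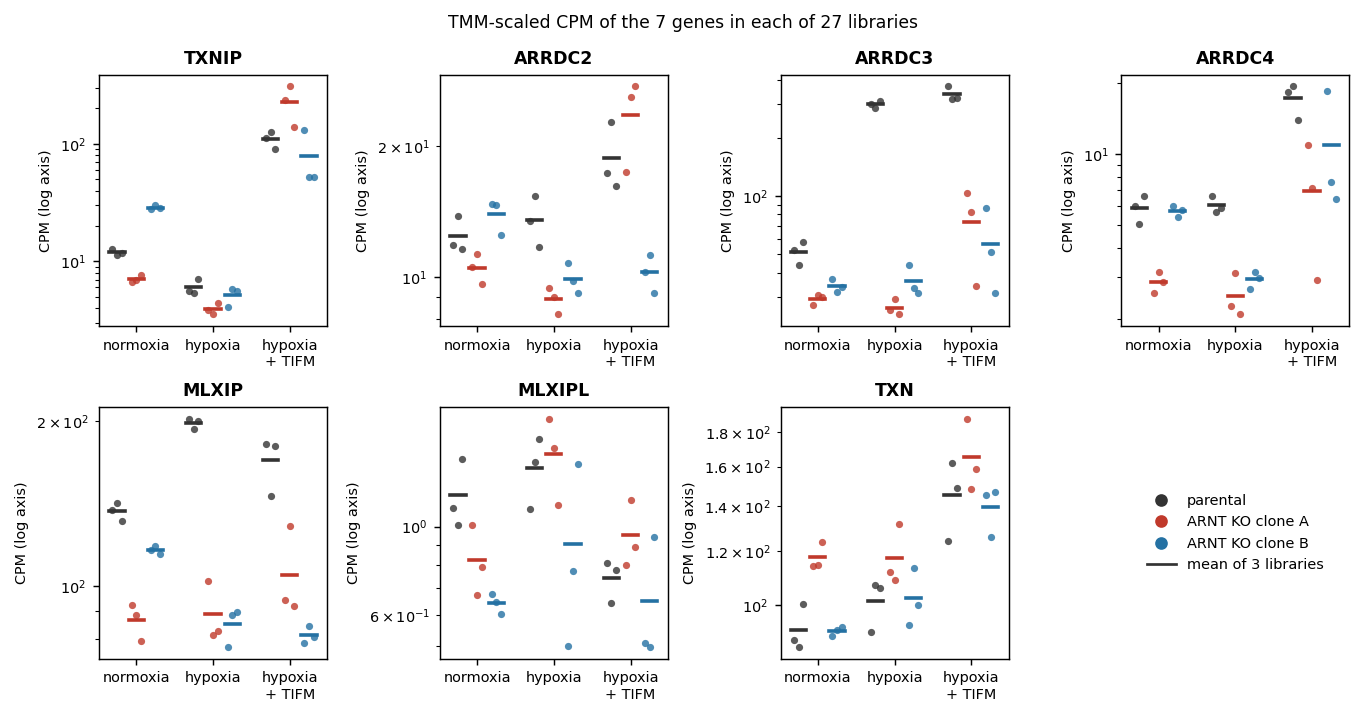
CPM after TMM scaling (log axes, which differ between panels) of the 7 genes in normoxia, hypoxia and hypoxia with TIFM; each point is 1 of 27 libraries and each bar the mean of 3. TXNIP rises from 3.94 to 28.7 CPM in regular medium to 78.2 to 229 CPM in TIFM (group means), and ARRDC3 is near 300 CPM only in parental cells under hypoxia, with or without TIFM.

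TIFM raised TXNIP, ARRDC4 and TXN in all 3 genotypes. Calls are at an adjusted p under 0.05 by edgeR's quasi-likelihood test with Benjamini-Hochberg adjustment over 13943 genes. In parental cells 4 of the 7 genes rose with TIFM, where 21.8% of all genes rose, and 1 fell, where 20.4% of all genes fell. In clone A 5 of 7 rose (33% of all genes) and 0 fell (34.2%), and in clone B 3 of 7 rose (25.9%) and 0 fell (27.9%). So many genes changed with TIFM that a count among 7 carries little weight beside these shares. For TXNIP the size stood out more than the call, since its increase was rank 41 of the 13943 genes in parental cells, rank 28 in clone A and rank 20 in clone B. The log2 fold changes of TXNIP were 4.18 ± 0.27 (SE) in parental cells (18.1-fold), 5.86 ± 0.28 in clone A (57.9-fold) and 3.92 ± 0.27 in clone B (15.1-fold), with adjusted p of 7.62e-11, 7.2e-14 and 9.9e-11. This fit shared a dispersion trend between groups of unlike spread. Over the alternative runs listed below, the highest adjusted p of TXNIP was 4.47e-06, 3.53e-06 and 0.000179. With only the libraries compared, 6981 of 12651 genes were called in clone A, against 9368 of 13943 in the fit of all libraries. The TIFM and hypoxia comparisons of a genotype share its hypoxia libraries. In clone B replicate 1 held the highest TXNIP level with TIFM, and without it the change in clone B was 3.36. Epithelial markers moved with TIFM as well: their summed level went from 7273 to 2780 CPM in parental cells, 2555 to 1289 in clone A and 7767 to 1251 in clone B. Of these 6 markers 2 rose and 3 fell in parental cells, and 1 rose and 3 fell in each clone. The keratin genes KRT8 (-1.71, -1.77 and -3.05) and KRT19 (-1.11, -1.42 and -2.41) fell in all 3 genotypes. KRT8 overlaps KRT18 on the opposite strand. EPCAM rose in parental cells (0.58) and clone B (0.79) and fell in clone A (-0.40), where KRT7 rose (1.41). The part of these markers in the member results was not tested.

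ARRDC4 (chr15:97960698-97973838, plus strand) rose with TIFM in each genotype. Parental libraries read 6.66, 5.68 and 5.88 CPM in hypoxia and 18.3, 19.4 and 13.9 with TIFM, a log2 change of 1.50 ± 0.31 (adjusted p = 0.000465). Clone A read 2.25, 3.12 and 2.08 in hypoxia and 10.9, 7.20 and 2.91 with TIFM, a change of 1.51 ± 0.34 (adjusted p = 0.000418). Clone B read 2.68, 3.15 and 2.98 in hypoxia and 18.6, 7.62 and 6.42 with TIFM, a change of 1.89 ± 0.33 (adjusted p = 3.82e-05). The groups were apart in parental cells and clone B, while in clone A replicate 3 with TIFM lay within the hypoxia range. Without clone B TIFM replicate 1, its highest library, the change in clone B was 1.29 and still called.

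The other arrestins differed by genotype. ARRDC2 (chr19:18001132-18014102, plus strand) rose with TIFM in parental cells from 13.5 ± 1.82 to 18.7 ± 3.45 CPM (log2 change 0.47 ± 0.15, adjusted p = 0.017) and in clone A from 8.90 ± 0.635 to 23.6 ± 5.37 (1.40 ± 0.16, adjusted p = 2.59e-08). In clone B ARRDC2 was 9.92 ± 0.818 CPM without and 10.3 ± 1.01 with TIFM, a change of 0.05 with a 95% interval of -0.28 to 0.37. The parental call for ARRDC2 was lost without parental hypoxia replicate 3 (adjusted p = 0.0954) and without parental TIFM replicate 2 (0.133). Of the exon length of ARRDC2, 9.53% is shared with a gene on the opposite strand, and the strand setting of the counting is not given in the sources used here. ARRDC3 with TIFM is described after its response to hypoxia.

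TXN (chr9:110243811-110256640, minus strand) rose with TIFM by less than TXNIP or ARRDC4: from 102 ± 8.72 to 145 ± 19.0 CPM in parental cells, 118 ± 12.2 to 165 ± 20.7 in clone A and 102 ± 10.1 to 139 ± 11.6 in clone B. The log2 changes of TXN were 0.52, 0.49 and 0.44, each with an SE of 0.11 (adjusted p = 0.000674, 0.000458 and 0.00176), and TIFM and hypoxia libraries did not overlap in any genotype. TXN did not pass the test for hypoxia in any genotype, with changes of 0.14, 0.00 and 0.16. Per kb of exon, TXN had the highest level of the 7 genes in every group, at 80.2 to 145 CPM per kb. On the same scale TXNIP ranged from 1.09 CPM per kb in clone A under hypoxia to 63.1 in clone A with TIFM.

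**Figure D2:**
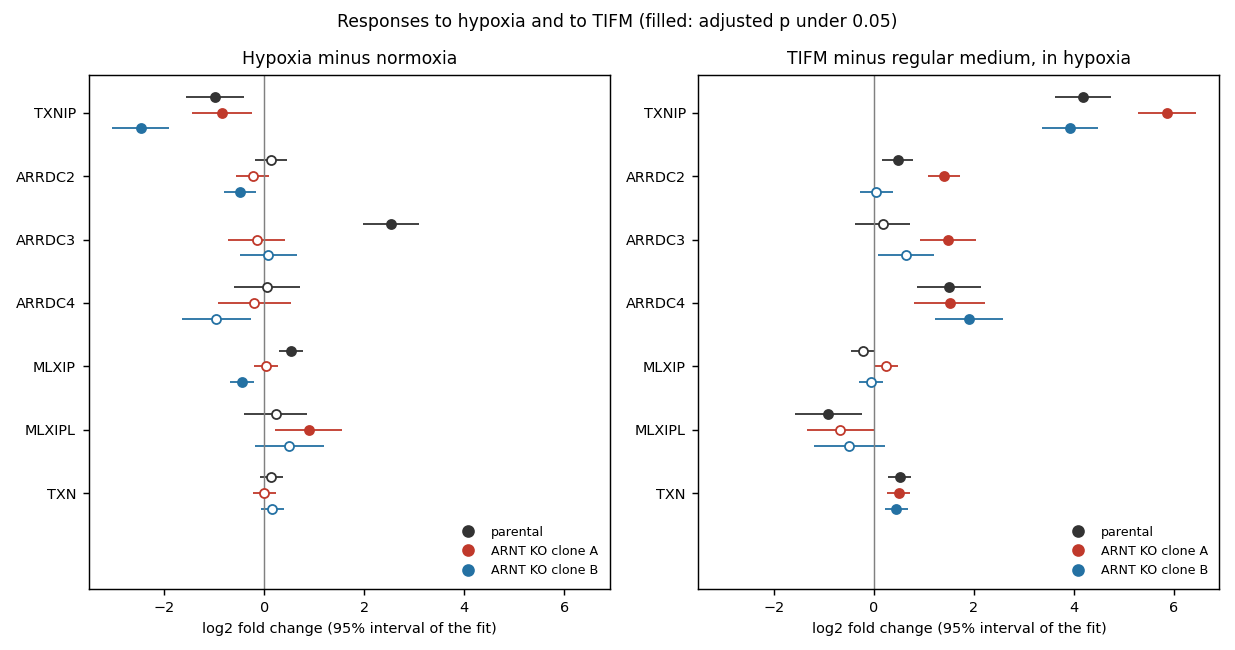
Log2 fold change of each gene for hypoxia against normoxia (left) and TIFM against regular medium under hypoxia (right), with the 95% interval of the fit and filled points where the adjusted p was under 0.05. TXNIP lies left of 0 for hypoxia in all 3 genotypes (-0.99, -0.85 and -2.47) and far to the right for TIFM (4.18, 5.86 and 3.92), and ARRDC3 responds to hypoxia by 2.54 in parental cells against -0.15 and 0.08 in the clones.

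Hypoxia in regular medium lowered TXNIP in all 3 genotypes. In parental cells 2 of the 7 genes rose (15.4% of all genes rose) and 1 fell (14.9% of all genes fell). In clone A 1 rose (10.4%) and 1 fell (11.8%), and in clone B 0 rose (4.46%) and 3 fell (4.84%). These shares depended on the fit. For clone B 1297 of 13943 genes were called in the fit of all libraries. With only the libraries compared 4242 of 13012 were called, and without the TIFM libraries 3925 of 13676. With only the libraries compared, 6804 of 13086 genes were called in parental cells and 4860 of 12595 in clone A. TXNIP fell by 0.99 on the log2 scale in parental cells (SE 0.28, adjusted p = 0.00874), by 0.85 in clone A (SE 0.30, adjusted p = 0.0406) and by 2.47 in clone B (SE 0.28, adjusted p = 9.83e-06). In clone B this was the fall of rank 8 among all 13943 genes. The clone A call was lost when any 1 of its 6 libraries was left out, with adjusted p between 0.0603 and 0.111.

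ARRDC3 (chr5:91368724-91383359, minus strand), a negative regulator of beta-adrenergic receptors and of integrin beta-4 at the cell surface, rose with hypoxia in parental cells and did not pass the test in either clone. Parental libraries read 52.2, 43.6 and 57.9 CPM in normoxia and 299, 287 and 308 in hypoxia, a log2 change of 2.54 ± 0.27 (5.81-fold, adjusted p = 2.61e-07). Clone A read 27.1, 30.8 and 29.9 in normoxia and 25.5, 29.2 and 24.3 in hypoxia, a change of -0.15 with a 95% interval of -0.72 to 0.42. Clone B read 36.9, 31.8 and 33.9 in normoxia and 43.8, 33.2 and 31.4 in hypoxia, a change of 0.08 with an interval of -0.49 to 0.64. The parental groups were far apart and the groups of each clone overlapped. Of the exon length of ARRDC3, 2.94% is shared with the antisense gene ARRDC3-AS1.

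With TIFM, ARRDC3 stayed high in parental cells at 371, 316 and 320 CPM, a change from hypoxia of 0.17 (95% interval -0.38 to 0.72). In clone A the TIFM libraries read 103, 82.6 and 34.1 CPM, a rise of 1.48 ± 0.28 on the log2 scale (adjusted p = 4.98e-05). In clone B they read 86.3, 51.3 and 31.2 CPM, a change of 0.64 ± 0.27 that did not pass the test (adjusted p = 0.052). All TIFM libraries of clone A exceeded its hypoxia libraries and those of clone B overlapped, and every clone library stayed below every parental library with TIFM. ARRDC3 in clone B passed without clone B hypoxia replicate 1 (0.80, adjusted p = 0.038) and without clone B TIFM replicate 3 (0.93, adjusted p = 0.00468), and in all libraries with RLE scaling (0.0454) and in DESeq2 (0.0375).

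MLXIP (chr12:122078722-122147347, plus strand), the MondoA gene, rose with hypoxia in parental cells. Parental libraries read 138, 142 and 131 CPM in normoxia and 202, 194 and 200 in hypoxia, a log2 change of 0.53 ± 0.12 (adjusted p = 0.00102). In clone A the change was 0.04 (95% interval -0.20 to 0.28). Clone B libraries of MLXIP read 116, 119 and 115 in normoxia and 77.4, 88.6 and 89.7 in hypoxia, a fall of 0.45 (SE 0.12, adjusted p = 0.0155). Parental cells and clone B therefore moved in opposite directions, without overlap between their normoxia and hypoxia libraries. The clone B call for MLXIP was lost without clone B hypoxia replicate 1 (adjusted p = 0.0749), normoxia replicate 1 (0.0536) or normoxia replicate 2 (0.0594). With TIFM the changes of MLXIP were -0.23, 0.24 and -0.07, and none passed in the fit of all libraries. In clone A (adjusted p = 0.0734) MLXIP passed with RLE scaling (0.035), in DESeq2 (0.0285) and without hypoxia replicate 1 (0.35, adjusted p = 0.0169), TIFM replicate 1 (0.31, 0.0245) or TIFM replicate 3 (0.34, 0.0146).

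MLXIPL (chr7:73593194-73624543, minus strand), the ChREBP gene, was close to the floor of detection, with group means of 0.642 to 1.53 CPM and 15 to 59 counts per library. Per kb of exon MLXIPL stood at 0.133 to 0.317 CPM, against 5.85 to 14.3 for MLXIP. Its 3 calls were a rise with hypoxia in clone A (0.88 ± 0.32, adjusted p = 0.0485), a fall with TIFM in parental cells (-0.91 ± 0.33, adjusted p = 0.0259) and a lower level in clone B than in parental normoxia (-0.90 ± 0.33, adjusted p = 0.0431). Each was lost when single libraries were left out, in 5 of 6, 3 of 6 and 5 of 6 cases, with adjusted p up to 0.189, 0.0951 and 0.177. The library whose absence kept the clone A call was hypoxia replicate 3, and the parental TIFM call was lost without hypoxia replicate 2, hypoxia replicate 3 or TIFM replicate 2. For clone B against parental cells in normoxia, the call was kept only without parental replicate 2. MLXIPL also passed, where it otherwise did not, for TIFM in clone A without hypoxia replicate 3 (-0.86, adjusted p = 0.036) and for clone B against parental hypoxia without clone B replicate 3 (-1.14, adjusted p = 0.0105).

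ARRDC4 and ARRDC2 moved little with hypoxia in parental cells and clone A. ARRDC4 in clone B went from 5.73 ± 0.315 to 2.94 ± 0.240 CPM without overlap, a change of -0.96 ± 0.33 that did not pass the test (adjusted p = 0.0691). ARRDC4 passed in DESeq2 (adjusted p = 0.0383), in a fit of only the libraries compared (0.000239) and without the TIFM libraries (0.000104). ARRDC2 in clone B fell by 0.49 (SE 0.16, adjusted p = 0.0485), a call lost without any 1 of its 6 libraries (adjusted p 0.0596 to 0.183), with the RLE scaling (0.0633) and without the count filter (0.064).

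The clones were set against parental cells in each condition; all 3 of these comparisons use the same parental libraries for both clones. In normoxia, clone A had 1 of the 7 genes higher and 4 lower, where 15.9% of all genes were higher and 15.8% lower, and clone B had 1 higher and 1 lower, where 13.2% were higher and 13.3% lower. TXNIP differed from parental cells in opposite directions: it was lower in clone A (log2 difference -0.75 ± 0.28, adjusted p = 0.0401) and higher in clone B (1.26 ± 0.27, 2.39-fold, adjusted p = 0.000738). The clone A difference in TXNIP was lost without any 1 of the 6 libraries (adjusted p 0.0602 to 0.107) and without the count filter (0.0556). Clone A in normoxia also had lower MLXIP (-0.66 ± 0.12), ARRDC4 (-1.04 ± 0.34) and ARRDC3 (-0.81 ± 0.27) and higher TXN (0.35 ± 0.11), with adjusted p of 7.27e-05, 0.0197, 0.0265 and 0.0176. Only the MLXIP call among these held without each of the 6 libraries. ARRDC3 was lost without any library but parental replicate 2 (adjusted p up to 0.0945). ARRDC4 was lost without clone A replicate 1, clone A replicate 3 or parental replicate 3 (up to 0.0694). TXN was lost without clone A replicate 3, parental replicate 1 or parental replicate 2 (up to 0.0733). In clone B, ARRDC3 (-0.58 ± 0.27, adjusted p = 0.128) and MLXIP (-0.24 ± 0.12, adjusted p = 0.146) did not pass, although all their clone B libraries lay below the parental ones. They passed in a fit of only the libraries compared (0.00124 and 0.00419) and without the TIFM libraries (0.000171 and 0.0176). ARRDC2 in clone A (-0.24, adjusted p = 0.263) passed in the same pair of fits (0.0448 and 0.0486).

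In hypoxia the same 4 genes, ARRDC2, ARRDC3, ARRDC4 and MLXIP, were below the parental level in each clone, and 0 of the 7 were higher. Of all genes, 20.9% were lower and 20.5% higher in clone A, and 19% were lower and 16.9% higher in clone B. The log2 differences of ARRDC3 were -3.50 ± 0.27 in clone A and -3.04 ± 0.27 in clone B (adjusted p = 5.07e-10 and 4.96e-09), and those of MLXIP were -1.16 ± 0.12 and -1.22 ± 0.12 (1.11e-08 and 5.07e-09). ARRDC4 differed by -1.29 ± 0.34 and -1.05 ± 0.33 (0.00354 and 0.0158). ARRDC2 differed by -0.60 ± 0.16 and -0.45 ± 0.16 (0.00316 and 0.027). For each of these genes the parental libraries were above all libraries of either clone. In clone B, ARRDC4 was lost without clone B replicate 1 (adjusted p = 0.0569) or parental replicate 1 (0.051), and ARRDC2 without clone B replicate 2 or 3 or parental replicate 1 or 2 (0.0584 to 0.138). TXNIP did not pass in either clone (-0.61, adjusted p = 0.101, and -0.22, adjusted p = 0.593). In clone A it passed in a fit of only the libraries compared (0.00674) and without the TIFM libraries (0.000425).

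With TIFM, clone A had 1 of the 7 genes higher and 3 lower than parental cells, where 30.9% of all genes were higher and 30.7% lower. Clone B had 0 higher and 3 lower, where 22.1% were higher and 25.4% lower. TXNIP was higher in clone A by 1.07 ± 0.26 (2.09-fold, adjusted p = 0.000901), with all 3 clone A libraries above the parental ones, and in clone B the difference was -0.48 ± 0.26 (adjusted p = 0.126). ARRDC3 remained lower in both clones (-2.19 ± 0.27 and -2.57 ± 0.27, adjusted p = 2.7e-07 and 5.33e-08), as did MLXIP (-0.69 ± 0.12 and -1.06 ± 0.12, adjusted p = 1.37e-05 and 4.8e-08). ARRDC4 was lower in clone A (-1.28 ± 0.32, adjusted p = 0.00118) and ARRDC2 in clone B (-0.87 ± 0.16, adjusted p = 6.62e-05). Without clone B TIFM replicate 1, TXNIP in clone B was lower than in parental cells (-1.05, adjusted p = 0.000234), and so was ARRDC4 (-1.27, adjusted p = 0.000881, against -0.66 and 0.0823 with it). ARRDC2 in clone A passed without clone A TIFM replicate 1 (0.51, adjusted p = 0.00344) or parental TIFM replicate 2 (0.49, adjusted p = 0.0123).

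**Figure D3:**
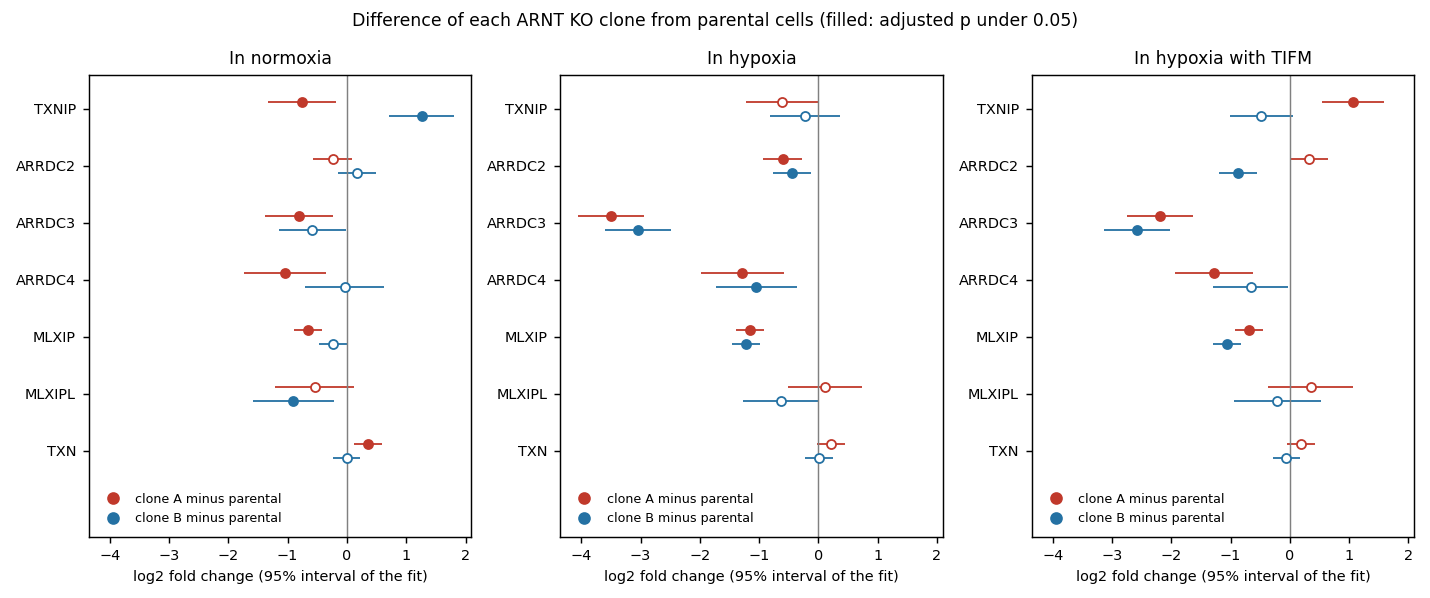
Log2 difference of each ARNT-knockout clone from parental cells in normoxia, hypoxia and hypoxia with TIFM, with the 95% interval of the fit and filled points where the adjusted p was under 0.05. ARRDC3 lies far left in hypoxia (-3.50 and -3.04) and in TIFM (-2.19 and -2.57), and TXNIP lies on opposite sides of 0 for the 2 clones in normoxia (-0.75 and 1.26).

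Whether the responses themselves differed between genotypes was tested as an interaction. For hypoxia, the response of ARRDC3 was below the parental one in each clone (log2 differences of -2.69 and -2.46, SE 0.39 each, adjusted p = 5.96e-05 and 0.000194). In clone A 1 of the 7 genes had a lower response and 0 a higher one, where 4.04% of all genes were lower and 2.19% higher. In clone B 3 had a lower response and 0 a higher one, where 3.24% were lower and 1.49% higher. These shares also depended on the fit. For clone A 869 of 13943 genes were called in all libraries and 2656 of 13374 with only the libraries compared. For clone B the counts were 660 of 13943 and 2592 of 13549. In clone B the response of MLXIP was lower by 0.98 (SE 0.16, adjusted p = 0.000356) and that of TXNIP was lower by 1.48 (SE 0.39, adjusted p = 0.0253). The TXNIP difference was lost without clone B hypoxia replicate 1, parental hypoxia replicate 3, clone B normoxia replicate 2, parental normoxia replicate 2 or parental normoxia replicate 3 (adjusted p 0.0558 to 0.0794). MLXIP in clone A differed by -0.50 ± 0.16 (adjusted p = 0.0718) and passed without clone A hypoxia replicate 1 (-0.61, 0.0235), in DESeq2 (0.0304), with only the libraries compared (0.00776) and without the TIFM libraries (0.00339). In clone B the responses of ARRDC2 (-0.62, adjusted p = 0.124) and ARRDC4 (-1.01, adjusted p = 0.268) did not pass, but did with only the libraries compared (0.00988 and 0.00087) and without the TIFM libraries (0.0103 and 0.00199).

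The hypoxia responses of clone B and clone A were also set against each other, and 0 of the 7 members and 0% of all genes passed in the edgeR fit of all libraries, with 870 genes at an unadjusted p under 0.05. DESeq2 called 34 genes, edgeR with only the libraries compared called 57, and edgeR without the TIFM libraries called 125. TXNIP differed by -1.62 ± 0.40 (adjusted p = 0.262), and it passed in DESeq2 (0.0227), in a fit of only the libraries compared (0.000923) and without the TIFM libraries (0.000178). MLXIP differed by -0.49 (adjusted p = 0.554) and passed without the TIFM libraries (0.0421). ARRDC3 differed by 0.23 (95% interval -0.57 to 1.03).

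For TIFM, the responses of TXNIP (1.68 ± 0.39), ARRDC3 (1.31 ± 0.38), ARRDC2 (0.93 ± 0.22) and MLXIP (0.47 ± 0.16) were larger in clone A than in parental cells (adjusted p = 0.00148, 0.00899, 0.00168 and 0.0266). That is 4 of 7 higher and 0 lower, where 19.3% of all genes were higher and 19.6% lower. The MLXIP difference had the weakest footing: it was lost in a fit of only the libraries compared (adjusted p = 0.133) and without clone A hypoxia replicate 2 (0.0727), clone A hypoxia replicate 3 (0.0666), parental hypoxia replicate 1 (0.051), clone A TIFM replicate 2 (0.127, where it was 0.29) or parental TIFM replicate 2 (0.0719). Between clone B and parental cells 0 of 7 TIFM responses differed past the threshold (4.06% of all genes were higher and 6.34% lower, and 3550 genes at an unadjusted p under 0.05); the TXNIP difference was -0.26 with a 95% interval of -1.05 to 0.53. Clone B responded less than clone A for TXNIP (-1.94 ± 0.39, adjusted p = 0.000609) and ARRDC2 (-1.35 ± 0.22, adjusted p = 8.36e-05), 2 of 7 lower and 0 higher, where 21.3% of all genes were lower and 18.8% higher. Without clone B TIFM replicate 1 the TXNIP difference was -2.53. ARRDC3 differed between the clones by -0.84 ± 0.39 (adjusted p = 0.0882), and passed without clone A TIFM replicate 3 (-1.19, 0.00413) or clone B TIFM replicate 1 (-1.29, 0.00689). MLXIP differed by -0.31 (adjusted p = 0.142), and passed without clone A hypoxia replicate 1 (-0.42, 0.0496). The response of ARRDC4 to TIFM differed by 0.01 between clone A and parental cells (95% interval -0.95 to 0.97).

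Among genes that act with the members, MLX, the binding partner of MondoA and ChREBP, was measured at 28.6 to 56.2 CPM. MLX fell with hypoxia in clone A (-0.48 ± 0.16, adjusted p = 0.0285) and rose with TIFM in clone A (0.63 ± 0.16, adjusted p = 0.000916), and did not pass for these contrasts in the other genotypes. Of its exon length, 18.1% is shared with PSMC3IP on the opposite strand. ARRDC1, the arrestin known for budding of vesicles from the cell surface, stood at 5.30 to 12.0 CPM and fell with TIFM in clone B (-0.54 ± 0.21, adjusted p = 0.0303), with changes of -0.13 and -0.23 that did not pass in parental cells and clone A. ARRDC5 was at or below 0.0439 CPM in every group and was not tested. Of 5 other genes reported to act on TXNIP transcription (FOXO1, FOXO3, FOXO4, NR3C1 and VDR), 3 rose and 0 fell with TIFM in parental cells, 3 rose and 1 fell in clone A, and 4 rose and 0 fell in clone B. Shares of all genes were 21.8% rising and 20.4% falling in parental cells, 33% and 34.2% in clone A, and 25.9% and 27.9% in clone B. A count among 5 carries little weight beside these shares. FOXO1 and FOXO3 rose in parental cells (0.60 and 0.51), clone A (0.70 and 1.06) and clone B (0.91 and 1.22). NR3C1, the glucocorticoid receptor gene, rose in parental cells (0.48) and clone B (0.46) and fell in clone A (-0.33, adjusted p = 0.042).

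Other genes described as glucose-responsive targets of MondoA or ChREBP moved in both directions with TIFM. Of 22 such genes listed, 16 were tested. With TIFM 3 rose and 7 fell in parental cells (median log2 change -0.43, against -0.00 for all genes), 6 rose and 7 fell in clone A (median -0.26 against -0.03), and 2 rose and 8 fell in clone B (median -0.34 against -0.03). Of all genes, 21.8% rose and 20.4% fell in parental cells, 33% rose and 34.2% fell in clone A, and 25.9% rose and 27.9% fell in clone B. In parental cells the largest changes were in PNPLA3, a lipid droplet protein, and the lipid synthesis genes ACLY, FASN and SCD, which fell by 2.55, 2.52, 2.49 and 2.19 on the log2 scale (adjusted p from 1.12e-08 to 1.55e-14). KLF10, a transcription factor gene, rose by 3.68 ± 0.16 in clone A (65.6 ± 8.05 to 843 ± 140 CPM) and by 2.45 ± 0.16 in clone B (85.5 ± 17.8 to 466 ± 105 CPM). Under hypoxia alone 9 of the 16 rose and 0 fell in parental cells, where 15.4% of all genes rose and 14.9% fell; BHLHE40 (1.52 ± 0.13) and SCD (1.31 ± 0.14) were among those that rose, while TXNIP fell. In clone A 6 rose and 1 fell (10.4% and 11.8% of all genes), and in clone B 2 rose and 1 fell (4.46% and 4.84%).

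**Figure D4:**
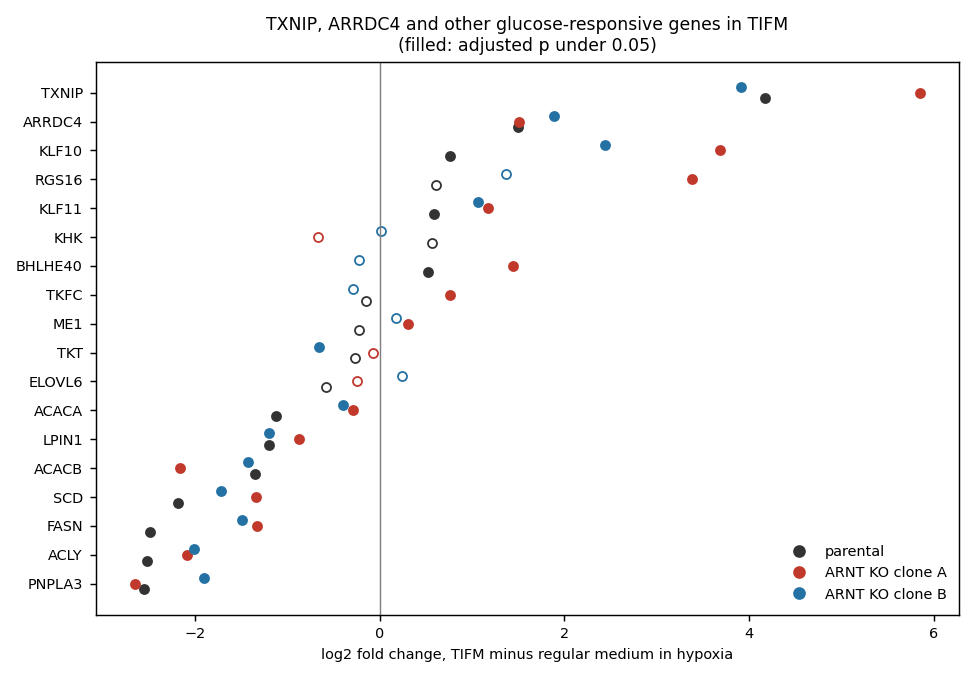
Log2 fold change for TIFM against regular medium under hypoxia, for TXNIP, ARRDC4 and 16 other genes listed as glucose-responsive; colors are the genotypes and filled points have an adjusted p under 0.05. TXNIP (4.18, 5.86 and 3.92) and KLF10 in the clones (3.68 and 2.45) lie at the right, while ACLY, FASN, SCD and PNPLA3 lie left of 0 in all 3 genotypes.

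Glucose uptake and phosphorylation supply the signal that MondoA senses, and TXNIP acts on the same transporters. Of 9 genes listed for this step 7 were tested. All 7 rose with hypoxia in parental cells (median log2 change 2.31), among them HK2 (hexokinase 2, 2.98 ± 0.17) and SLC2A1 (the transporter GLUT1, 2.79 ± 0.15), while 0 of 7 passed in clone A and 1 rose in clone B; of all genes 15.4%, 10.4% and 4.46% rose in these comparisons. With TIFM 4 rose and 2 fell in parental cells, 4 rose and 1 fell in clone A, and 2 rose and 2 fell in clone B. The TIFM shares of all genes were 21.8% rising and 20.4% falling in parental cells, 33% and 34.2% in clone A, and 25.9% and 27.9% in clone B. SLC2A1 was 139 ± 13.5 CPM in parental hypoxia and 351 ± 66.6 with TIFM, against 20.1 ± 3.99 and 79.5 ± 14.0 in clone A and 26.9 ± 1.65 and 40.9 ± 4.04 in clone B. TXNIP and SLC2A1 thus both had their highest parental level in TIFM.

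The other genes of the thioredoxin system, 14 tested of 16 listed, moved less than TXNIP. With TIFM 5 rose and 3 fell in parental cells (median 0.18), 9 rose and 2 fell in clone A (median 0.45), and 3 rose and 6 fell in clone B (median -0.02). The shares of all genes were 21.8% rising and 20.4% falling in parental cells, 33% and 34.2% in clone A, and 25.9% and 27.9% in clone B. PRDX6, a peroxiredoxin, rose in parental cells by 0.78 ± 0.11 and in clone A by 1.25 ± 0.11. In clone B its mean log2 CPM was 7.20 in hypoxia and 7.76 with TIFM. The reductase gene TXNRD3 fell with TIFM in parental cells by 1.00 ± 0.14 and in clone B by 1.22 ± 0.14. TXNRD2 fell in clone B by 0.88 ± 0.15. TXNRD1, the cytosolic reductase that recharges thioredoxin, rose with TIFM in clone A by 1.18 ± 0.11 and in clone B by 1.00 ± 0.11. In parental cells TXNRD1 was not among the 4 called genes of largest change with TIFM, so its change there is not given. With hypoxia 3 rose and 2 fell in parental cells, where TXNRD1 rose by 0.51 ± 0.11, and in each clone 0 rose and 1 fell. The hypoxia shares of all genes were 15.4% rising and 14.9% falling in parental cells, 10.4% and 11.8% in clone A, and 4.46% and 4.84% in clone B. Ubiquitin ligases of the NEDD4 family, some of which bind arrestins, were 9 tested of 9 listed: with TIFM 2 rose and 2 fell in parental cells (median -0.13), 3 rose and 5 fell in clone A (median -0.91), and 2 rose and 4 fell in clone B (median -0.45). Of the subunits of AMPK, a kinase that acts on TXNIP protein, 6 of 7 were tested. With TIFM 4 rose and 1 fell in parental cells, 3 rose and 1 fell in clone A, and 3 rose and 0 fell in clone B. For the ligases and for AMPK the shares of all genes are the TIFM shares given above.

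The genes whose group means followed TXNIP most closely over the 9 groups were PRDX6, IRF2BP2, DHRS2, ITPKC and XBP1, with Pearson r of log2 CPM from 0.959 to 0.966 among 10500 candidates. Those nearest to ARRDC4 were INSR, MPZL1, APLP2, ZNF626 and ANO1, with r from 0.939 to 0.957. DHRS2 spanned 0.178 to 16.3 CPM and XBP1 31 to 258 CPM. The Pearson correlation between TXNIP and ARRDC4 themselves was 0.758 over the same 9 points. It was 0.326 between TXNIP and ARRDC3 and 0.854 between ARRDC3 and MLXIP. The Spearman rank correlations of these pairs were 0.8, 0.6 and 0.517. The highest rank correlation among the members, 0.917, was between ARRDC3 and ARRDC4, with a Pearson r of 0.725. These are descriptions of 9 group means that share genotypes, conditions and scaling factors.

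**Figure D5:**
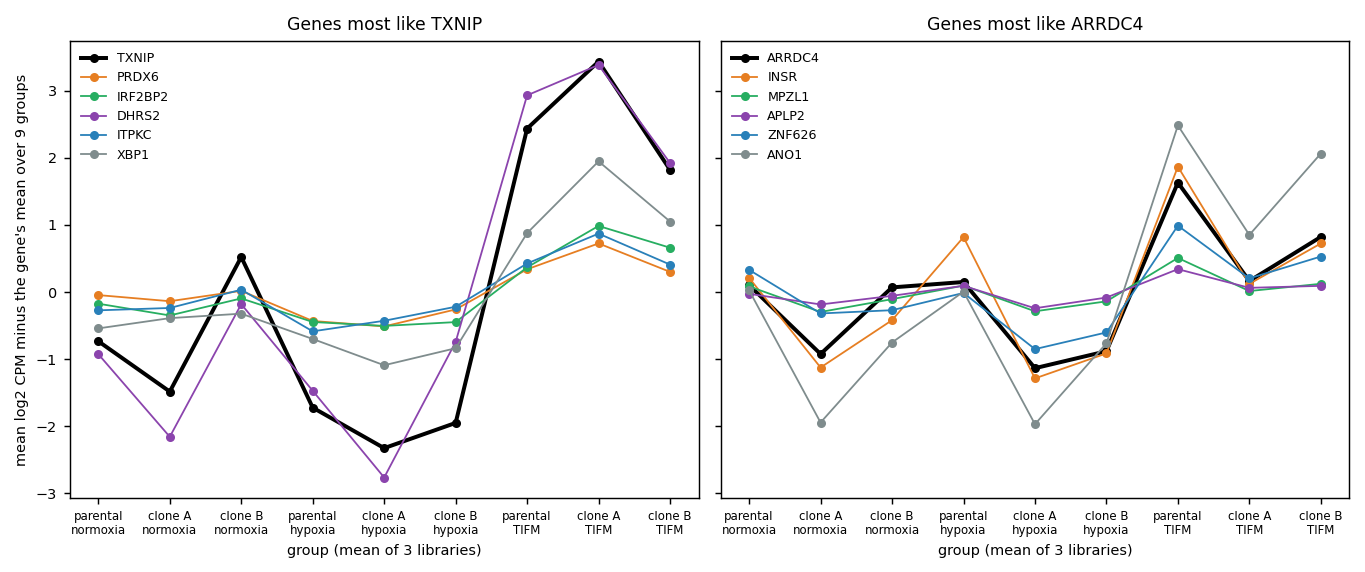
Group mean log2 CPM, centred on each gene's own mean over the 9 groups, for TXNIP (left) and ARRDC4 (right, both black) with the 5 genes of highest correlation to each; groups are ordered by condition and points are means of 3 libraries. TXNIP and DHRS2 have the widest swings in the left panel, and the other lines share the rise in TIFM at smaller amplitude.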

How the data were processed

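The authors deposited a table of raw read counts per Ensembl gene for all 27 libraries. The submitters' processing notes name HISAT2, featureCounts and GRCh38; versions, annotation and strand setting: not given in the sources used here. Symbols came from GENCODE release 29 (21409 of 21487 identifiers matched, 78 did not). The members and gene lists were chosen with earlier results of these data known. All libraries entered a single edgeR 4.0.16 fit (R 4.3.3, limma 3.58.1) with TMM scaling, filterByExpr (minimum count 10, minimum total 15; 13943 genes kept), a coefficient for each of 9 groups, robust quasi-likelihood F tests and 18 contrasts, each adjusted by Benjamini-Hochberg over all tested genes and called under 0.05. The script was tested on simulated data. Levels are TMM-scaled CPM with SD, n = 3; per-length levels divide by the GENCODE exon length. Text names all 7 members, ARRDC1, ARRDC5, MLX and ARNT. From other lists it names at most 4 called genes per contrast with the largest change and a group mean of at least 5 CPM. Genes are then followed across conditions, and CDH1, KRT7, KRT8, KRT19, EPCAM, CD68, COL1A1 and INS are marker checks. Alternatives were RLE scaling, no count filter, a replicate block, only the libraries compared, DESeq2 1.42.0 and leaving out each library; leaving out all TIFM libraries was chosen after seeing the data.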

Additional observations from a re-analysis of the deposited data

Results flagged for a closer look

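The responses of 10 member and contrast pairs differed between genotypes by the interaction test, in log2 units. The hypoxia response of ARRDC3 was lower than the parental one in clone A (-2.69) and clone B (-2.46), and for clone B those of TXNIP (-1.48) and MLXIP (-0.98) were lower too. The TIFM response was larger in clone A than in parental cells for TXNIP (1.68), ARRDC3 (1.31), ARRDC2 (0.93) and MLXIP (0.47). It was smaller in clone B than in clone A for TXNIP (-1.94) and ARRDC2 (-1.35). With 3 libraries a group, no single library was tested as an outlier.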

How the results depend on the processing

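Of 126 member and contrast values, 53 were called; 38 of these held in every alternative run and 15 were lost in some, while 19 of the 73 not called passed in some. Among 1708 alternative values 0 reversed a call, and 55 changed sign with neither value called. Losses and gains were 1 and 2 with RLE scaling, 5 and 0 without the count filter, 1 and 9 with only the libraries compared, 0 and 5 in DESeq2, and 0 and 10 (of 70 values) without the TIFM libraries. The number of members called for hypoxia in clone A went from 2 to 0 without the count filter. For clone B against parental cells in normoxia it went from 2 to 1 without the filter and to 4 with only the libraries compared or without the TIFM libraries. The hypoxia response of clone A against parental cells went from 1 to 2 with only the libraries compared, without the TIFM libraries or in DESeq2, that of clone B against parental cells from 3 to 5 with only the libraries compared or without the TIFM libraries, and that of clone B against clone A from 0 to 1 with only the libraries compared or in DESeq2 and to 2 without the TIFM libraries. The cause was not tested.

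Leaving out 1 library at a time, members called ranged from 3 to 3 for hypoxia in parental cells, 0 to 1 in clone A and 1 to 2 in clone B. For TIFM they ranged from 3 to 5, 5 to 6 and 3 to 4. Clone A against parental cells gave 1 to 3 in normoxia, 4 to 4 in hypoxia and 4 to 5 with TIFM, and clone B 1 to 2, 2 to 4 and 3 to 5. Differences in the hypoxia response gave 1 to 2 (clone A against parental), 2 to 3 (clone B against parental) and 0 to 0 (between clones), and in the TIFM response 3 to 4, 0 to 0 and 2 to 3.

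Replicate numbers did not pair the libraries throughout. Of 36 same-number pairs 9 correlated above 0.1, no contrast had all 3 above it, and 15 of 36 correlated best with their own number. Between TIFM libraries, r for replicates 1 to 3 was 0.233, 0.195 and -0.0424 (clone A with parental). For clone B with parental it was 0.0645, 0.126 and 0.25. A replicate effect present only with TIFM was not tested, since the block was common to all 27 libraries. A replicate block lost 0 calls and gained 3: ARRDC3 for TIFM in clone B (adjusted p = 0.0464), and with TIFM ARRDC2 in clone A (0.0376) and ARRDC4 in clone B (0.0442) against parental cells. Depth limits MLXIPL most, at 15 to 59 counts per library.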
